A study of Homo sapiens with 6 samples.

Results

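The genes described here are 34 direct target genes of p53, listed by symbol, among 58336 genes in the count files. The list and its classes were chosen with earlier results of these data known. All 34 were found by their Ensembl identifiers, and 33 had enough reads to be tested. They were sorted by textbook function into 4 feedback genes, 14 genes of apoptosis, 6 of cell cycle arrest, 4 of DNA repair and 6 of metabolism, redox control and mitochondrial quality. RNA was sequenced from 12Z cells, an established line of human endometriotic epithelial cells. Cells of 3 libraries received siRNA against BRG1 (siBRG1), the chromatin remodelling ATPase encoded by SMARCA4, and cells of 3 libraries received a non-targeting siRNA (control). All 6 shared the same siRNA dose of 50 nM, a change to medium with 0.5% serum at 48 h and RNA collection at 72 h, and the shared protocol text mentions drug or vehicle without naming an agent for any sample. 12Z is a single cell line, and the labels do not state whether replicates are independent cultures. The p-values therefore cover only how far libraries of a group lie apart, and that spread could be technical.

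p53 is a transcription factor that is kept low by MDM2, a ubiquitin ligase, and by MDM4, its relative. When DNA damage or other stress releases p53 from them, it binds its sites in promoters and introns and turns on genes for arrest, repair, metabolism and cell death. MDM2 and the phosphatase PPM1D (WIP1) are themselves p53 targets and close negative feedback loops. This is the general scheme, and whether it is intact in the cell line used here was not tested. The RNA levels below are therefore not a measure of p53 activity.

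The classical p53 site consists of 2 copies of a 10-base motif with 0 to 13 bases between them. It is its own reverse complement in pattern, so both strands were read. Promoter windows from RefSeq (GRCh38.p14, 250 bases before to 50 after a start) were matched for 27 of the 34 genes, in 39 windows. FBXO22, TNFRSF10A, TNFRSF10B, TP53INP1, PHLDA3, GADD45A and RRM2B had no entry. The exact site occurred in 1 of these windows, that of DDB2, and in 0.0285% of all 35116 windows. A single exact 10-base motif occurred in 7 of the 39 windows (17.9%) and in 6.63% of all windows. For the 20-base site without a spacer, 3 definitions were tried, and the one printed was chosen after its matches were seen. With up to 2 mismatches at any of the 20 positions it occurred in 5 of 39 windows (12.8%), of MDM2, DDB2, FAS and AEN, and in 0.649% of all. Both MDM2 windows among them overlap and hold the same match, so that match is counted more than once. With up to 3 mismatches outside both cores it occurred in 5 windows (12.8%), of AEN, FAS, GDF15, RPS27L and SESN1, and in 0.427% of all, so MDM2 and DDB2 are found by one definition and not by the other. With up to 3 mismatches anywhere it occurred in 11 windows (28.2%) of 10 genes and in 5.2% of all.

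The matches of 4 genes are shown because they let a reader set a site beside the gene's own change: p53 target genes with a match near a start both rose and fell. The match is in capitals. The match shown for DDB2 (chr11:47214975-47215003, plus strand) is exact with a spacer. Counted above for DDB2 without a spacer was another, overlapping match (chr11:47214969-47214988) with 1 mismatch, which is not shown. The matches of FAS (chr10:88991304-88991333), AEN (chr15:88621301-88621330) and MDM2 (chr12:68808848-68809001), all on the plus strand, have 2 mismatches each. The shown matches of DDB2, FAS and AEN overlap an annotated exon. That of MDM2 lies inside MDM2 transcripts and in no annotated exon, 94 bases before a RefSeq start. A match is a description of letters, not evidence of binding.
DDB2: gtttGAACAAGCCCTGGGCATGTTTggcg
FAS: ctcctGGACAAGCCCTGACAAGCCAagcca
AEN: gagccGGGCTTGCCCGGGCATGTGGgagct
MDM2: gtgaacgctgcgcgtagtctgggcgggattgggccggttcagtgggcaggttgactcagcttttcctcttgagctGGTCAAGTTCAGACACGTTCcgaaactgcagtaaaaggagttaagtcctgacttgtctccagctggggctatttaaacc

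The control libraries held 40228700 to 49720300 counts assigned to genes and the siBRG1 libraries 12391200 to 13369700. The labels mark all 3 controls, and no siBRG1 library, as taken over from an earlier deposit, and with that, batch and group cannot be told apart. Reads that overlapped no exon on the counted strand made up 13.3% of control and 3.97% of siBRG1 reads, and multi-mapped reads 9.81% and 20.3%. Reads without an exon can still lie in introns or on the strand opposite to a gene. SMARCA4 itself was at 60.4, 78.8 and 50.5 CPM (a gene's counts scaled to library size with TMM factors) in the siBRG1 libraries and at 244, 266 and 262 CPM in the controls (log2 fold change -2.03, SE 0.161). The epithelial keratins KRT8 (means 1654 and 1555 CPM) and KRT18 (1294 and 1342 CPM) were abundant in both groups. Over the epithelial list, 4 of 8 tested genes rose and 2 fell (36.1% and 36.5% of all genes tested). KRT7 fell most (-2.40), and CDH1 rose most among genes averaging 50 counts or more (0.93). The largest log2 fold change of the list at any count was 2.63. EPCAM was low (means 1.61 CPM after siBRG1 and 0.251 CPM in controls). The summed level was 3484 to 3738 CPM after siBRG1 against 3938 to 4024 CPM in controls. Of 8 stromal markers 7 rose, COL3A1 most (2.46), and THY1 fell (-0.17), and their summed level was 4913 to 5263 CPM after siBRG1 against 2744 to 2937 CPM in controls. Of 5 endothelial markers 3 could be tested, of which 1 rose and VWF fell (-0.69), with sums of 15.0 to 21.3 and 17.4 to 20.1 CPM. Of 6 immune markers 2 could be tested, of which CD14 rose (1.19), with sums of 9.83 to 10.5 and 4.10 to 5.49 CPM, and the T cell gene CD3E had 0 counts in every library. The part of these differences in the results below was not tested. In such bulk RNA, fewer cells of a type and less RNA per cell cannot be told apart.

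After siBRG1, 20 of the 33 tested p53 target genes rose, 6 fell and 7 did not pass the test (edgeR quasi-likelihood test, Benjamini-Hochberg adjusted over 15830 genes, adjusted p under 0.05). Of all genes tested, 36.1% rose and 36.5% fell, so 72.6% changed, and of protein-coding genes 40.4% rose and 35.6% fell. The median log2 fold change (siBRG1 over control) was 0.37 over the p53 target genes and -0.01 over all genes tested. Because the genes were chosen with earlier results of these data known, these comparisons carry that choice. At least 2-fold, 7 p53 target genes rose and 0 fell, against 10.4% and 11.1% of all genes. The CPM ranges of both groups did not overlap in 26 of the 33, the same 26 that passed the test, and in 74.3% of all genes. The levels of all 34 genes added up to 1944 to 1983 CPM after siBRG1 and 1666 to 1689 CPM in controls. In the authors' deposited table, 33 of these genes are listed, with 20 higher and 6 lower at an adjusted p under 0.05, and all 33 have the same sign.

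**Figure D1:**
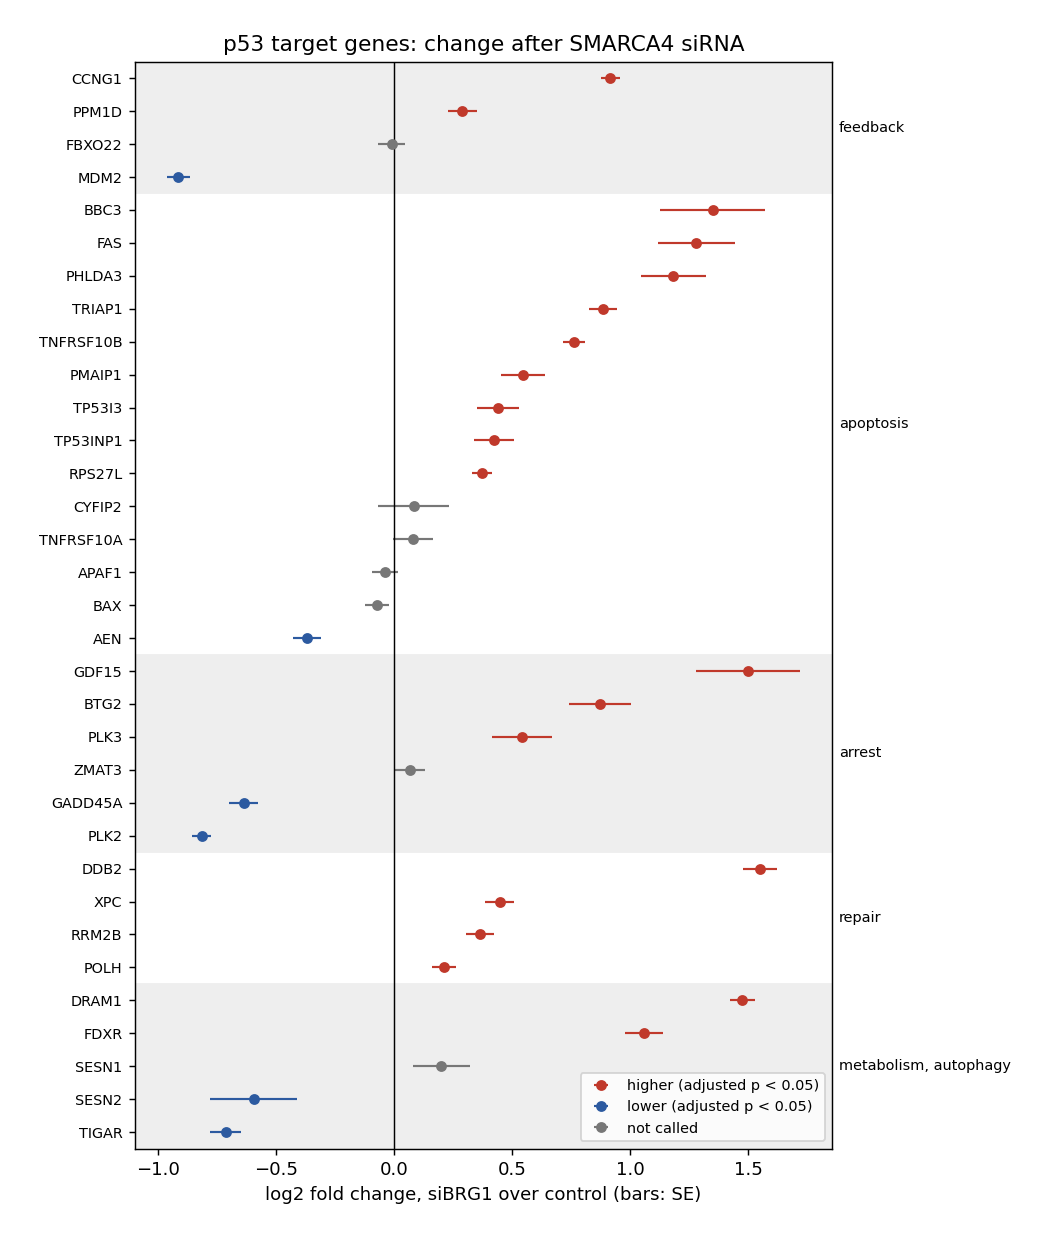
Log2 fold change of each tested p53 target gene (x axis, siBRG1 over control, bars show the SE), grouped by function. The range runs from -0.91 for MDM2 to 1.55 for DDB2, and each functional group except repair holds genes on both sides of 0.

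**Figure D2:**
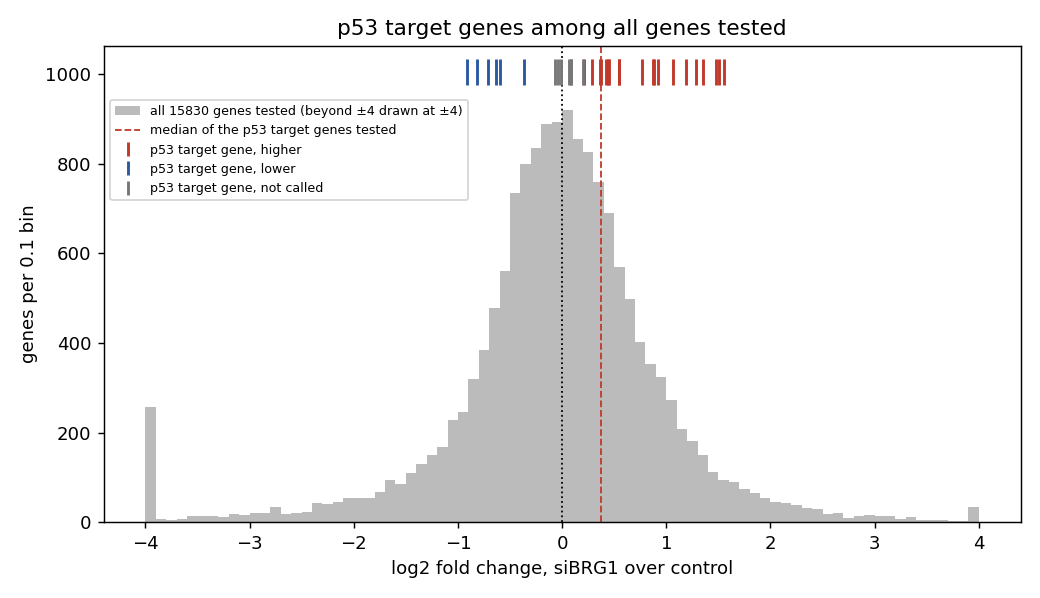
Log2 fold changes of all 15830 genes tested (grey, number of genes per 0.1 bin) with the p53 target genes as ticks above and their median as a dashed line. The p53 target genes lie inside the bulk of all genes, and their median is 0.37.

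Among the feedback genes, MDM2, which ubiquitinates p53, fell. Its level was 76.2, 66.6 and 68.9 CPM in the siBRG1 libraries and 134, 132 and 133 CPM in the controls. Every siBRG1 library lay below every control (log2 fold change -0.91, SE 0.0488, adjusted p = 6.33e-16 with edgeR). Gene-level counts over the locus (chr12:68808176-68850686, plus strand, GENCODE 29 on GRCh38) do not separate the transcripts of MDM2's promoters. MDM2, BBC3, FAS, PHLDA3, GDF15, SESN1, TIGAR and DRAM1, 8 genes in all, overlap another annotated gene on the same strand, so reads there may be divided or left uncounted. PPM1D was at 46.1, 53.6 and 45.8 CPM after siBRG1 and 39.0, 40.7 and 39.2 CPM in controls, so it rose by 0.29 (SE 0.0631, adjusted p = 1.75e-04 with edgeR). CCNG1, which encodes cyclin G1, a protein that recruits a phosphatase to MDM2, was at 338, 358 and 325 CPM against 187, 177 and 177 CPM. It rose by 0.92 (SE 0.0409). FBXO22, an F-box protein of a ubiquitin ligase, had means of 64.7 and 65.1 CPM, which missed the threshold (adjusted p = 0.893 with edgeR). It passed as higher, by 0.24, with GC content and length trends removed (adjusted p = 1.93e-04 with edgeR).

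Among the genes that act on p53, MDM4 was at 22.1, 18.3 and 21.2 CPM after siBRG1 and 58.7, 57.5 and 59.7 CPM in controls, and fell by 1.51 on the log2 scale (SE 0.0683). MDM2 and MDM4, both negative regulators of the p53 protein, thus had lower RNA levels. Their groups did not overlap, as in 74.3% of all genes tested. PPM1D, which also closes a negative feedback loop, rose by 0.29, likewise without overlap. USP7, a deubiquitinase of MDM2 and p53, fell by 0.86 on the log2 scale, and HIPK2, a kinase that phosphorylates p53, fell by 1.02 on the log2 scale; both were chosen after their values were seen. CDKN2A, whose locus also encodes the MDM2 inhibitor ARF from another reading frame, rose by 1.31, and gene counts do not separate its products. Over this list of upstream and control genes, 11 of the 27 tested rose and 12 fell (36.1% and 36.5% of all genes tested). The median log2 fold change of the list was 0.02.

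**Figure D3:**
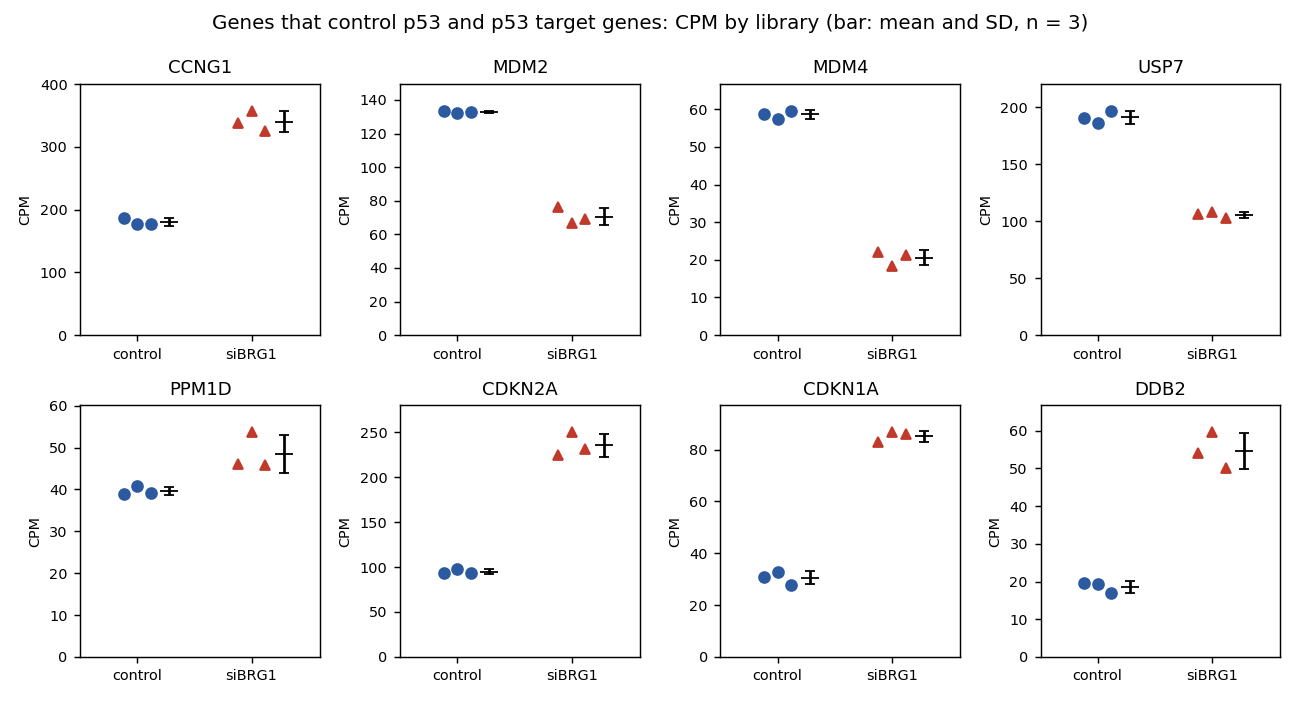
CPM of genes that control p53 and of p53 target genes in each library (points) with the group mean and SD beside them (n = 3, y axis in CPM, each panel from 0). MDM2, MDM4 and USP7 have every siBRG1 library below every control, and CCNG1, PPM1D, CDKN2A, CDKN1A and DDB2 have every siBRG1 library above. Only selected genes are drawn, USP7 after its value was seen. The groups did not overlap in 74.3% of all genes tested.

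Among the apoptosis genes 9 of 14 rose and 1 fell (36.1% and 36.5% of all genes tested), and 4 did not pass the test. The median of this group was 0.43 on the log2 scale. BBC3 encodes PUMA, a BH3-only protein that triggers mitochondrial apoptosis. It was at 3.49, 4.78 and 3.13 CPM after siBRG1 and 1.38, 1.55 and 1.54 CPM in controls. It rose by 1.35 (SE 0.222, adjusted p = 4.32e-06 with edgeR), and by 0.87 with GC content and length trends removed. BBC3 had a mean of 56.5 counts per library, the lowest of the tested p53 target genes. AEN, an exonuclease that degrades DNA in dying cells, was the member of this group that fell. Its levels were 47.5, 46.4 and 54.3 CPM against 62.0, 67.4 and 61.8 CPM (log2 fold change -0.37, SE 0.0603). PMAIP1, which encodes the BH3-only protein NOXA, rose by 0.55. The death receptor gene FAS, named after its values were seen because its promoter match is shown, was at 6.26, 6.81 and 7.83 CPM against 3.19, 2.50 and 2.86 CPM and rose by 1.28 (SE 0.163).

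The paired TRAIL death receptors differed in their calls. TNFRSF10B (DR5) was at 209, 179 and 203 CPM after siBRG1 and 114, 117 and 117 CPM in controls, and rose by 0.76 (SE 0.0466). TNFRSF10A (DR4) was at 19.3, 17.9 and 20.7 CPM against 17.8, 17.8 and 19.1 CPM, with overlapping groups and an adjusted p of 0.397 (edgeR). Whether both receptors differ in their response was not tested.

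PHLDA3, an inhibitor of AKT, rose by 1.18, and TRIAP1, which acts in mitochondrial lipid transfer, rose by 0.89. TP53INP1, a stress-induced p53 cofactor, rose by 0.43. RPS27L, a paralogue of ribosomal protein RPS27, rose by 0.37. Its paralogue RPS27 rose by 1.03. Whether reads shared by both genes affect the value of RPS27L was not tested. TP53I3, a quinone oxidoreductase, rose by 0.44, but by only 0.10, short of the threshold, once GC content and length trends were removed (adjusted p = 0.307 with edgeR). BAX, the pore-forming effector, had means of 66.1 and 69.5 CPM and a log2 fold change of -0.07 that missed the threshold. With GC content and length trends removed BAX was lower (-0.42, adjusted p = 1.47e-08 with edgeR). APAF1, the apoptosome scaffold, and CYFIP2 had log2 fold changes of -0.04 and 0.08 and did not pass the test.

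**Figure D4:**
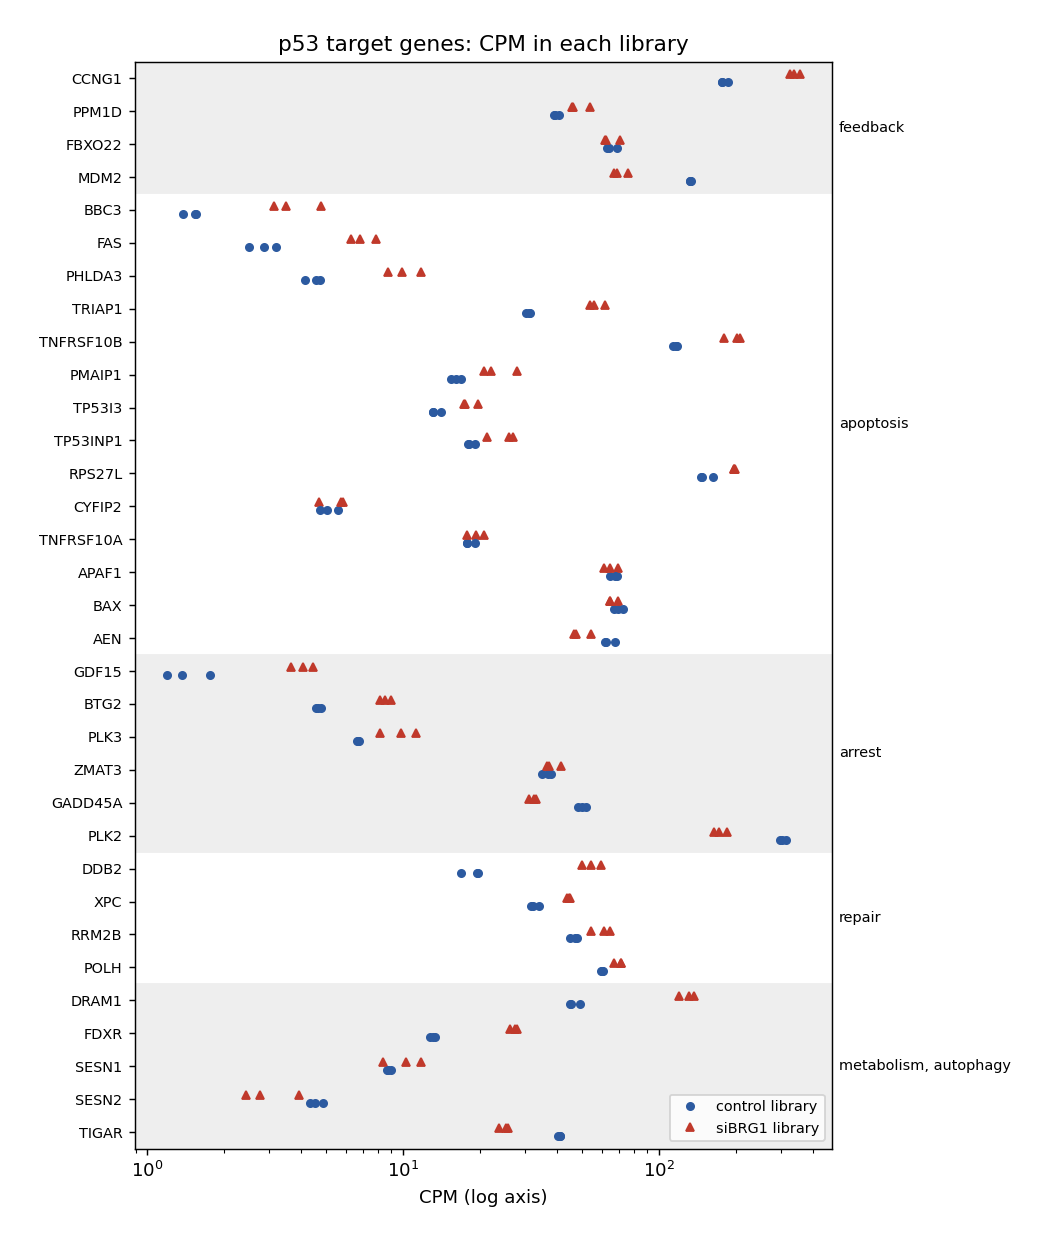
CPM of each tested p53 target gene in every library (log axis, points are libraries, colours are groups), ordered by function. DDB2, DRAM1 and, at low levels, BBC3 show siBRG1 libraries far above the controls, and MDM2, PLK2 and TIGAR below them.

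Among the arrest genes 3 of 6 rose and 2 fell (36.1% and 36.5% of all genes tested), and the median was 0.31 on the log2 scale. GDF15, a secreted stress cytokine, rose most: 3.64, 4.07 and 4.47 CPM against 1.19, 1.76 and 1.37 CPM (log2 fold change 1.50, SE 0.221). These are low levels, with a mean of 56.8 counts over the 6 libraries. PLK2 (chr5:58453982-58460260, minus strand), a polo-like kinase, ranked highest per kilobase of exon in controls, with all annotated exons of a gene merged. PLK2 was at 64.1 CPM per kb there and fell to 36.4 CPM per kb. By library it was at 172, 185 and 164 CPM after siBRG1 and 303, 299 and 314 CPM in controls (log2 fold change -0.82, SE 0.0421, adjusted p = 2.87e-16 with edgeR). Its relative PLK3 was at 8.15, 9.87 and 11.3 CPM against 6.75, 6.70 and 6.58 CPM and rose by 0.54 (SE 0.127). That call was lost with GC content and length trends removed (0.17, adjusted p = 0.222 with edgeR). GADD45A, which binds PCNA and CDK1, fell by 0.64 on the log2 scale, and BTG2, an antiproliferative regulator of mRNA decay, rose by 0.87. ZMAT3, an RNA-binding zinc finger protein, did not pass the test (0.07). It passed with GC content and length trends removed (0.28) and with library totals alone (0.14).

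CDKN1A, the p21 inhibitor of cyclin-dependent kinases and the best known arrest target, is listed among the other p53 targets. It was at 82.8, 86.7 and 86.0 CPM after siBRG1 and 31.0, 32.7 and 27.9 CPM in controls, and rose by 1.48 (SE 0.0589). Of the 40 tested genes of that list, 18 rose and 10 fell (36.1% and 36.5% of all genes tested), with a median of 0.11. The interferon-inducible TRIM22 rose most (2.76) and the secreted matrix protein THBS1 fell most (-2.91). Of 34 cell cycle genes repressed through the DREAM complex, which acts downstream of p21, 14 rose and 15 fell (median 0.01). Whether p21 acts through DREAM in these cells was not tested. CDK1 rose by 1.22 and the proliferation marker MKI67 fell by 0.59 on the log2 scale.

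All 4 repair genes rose, with a median log2 fold change of 0.41, and 36.1% of all genes tested rose. DDB2 (chr11:47214465-47239240, plus strand), the damage sensor of global genome nucleotide excision repair, had the largest rise of all 33 genes. It kept that place in 10 of the 16 alternatives, with GDF15 ahead in 3 and DRAM1 in 3. Its levels were 54.1, 59.6 and 50.2 CPM after siBRG1 and 19.6, 19.4 and 16.8 CPM in controls. The lowest siBRG1 library was well above the highest control (log2 fold change 1.55, SE 0.0731, adjusted p = 3.60e-17 with edgeR). Reads on the opposite strand of DDB2 amounted to 16.0% of its reads in controls and 5.55% after siBRG1. Their mean level was 3.55 CPM in controls and 3.22 CPM after siBRG1, while reads on the gene's own strand rose. XPC, its partner in damage recognition, rose by 0.45, RRM2B, the p53-inducible ribonucleotide reductase subunit, by 0.36, and POLH, the polymerase that copies past ultraviolet lesions, by 0.21.

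Among the 6 metabolism genes 2 rose and 2 fell (36.1% and 36.5% of all genes tested), 1 did not pass the test and SPATA18 could not be tested. SPATA18, which acts in mitochondrial quality control, had 0 counts in all 6 libraries, which allows up to 0.218 to 0.235 CPM per siBRG1 library and 0.0617 to 0.0764 CPM per control (3 counts, counting error only). DRAM1 (chr12:101877351-102012130, plus strand), a lysosomal membrane protein that promotes autophagy, was at 131, 120 and 137 CPM after siBRG1 and 49.0, 45.4 and 45.0 CPM in controls (log2 fold change 1.48, SE 0.0526, adjusted p = 5.15e-20 with edgeR). FDXR, the mitochondrial ferredoxin reductase, rose by 1.06, and by 0.68 with GC content and length trends removed. TIGAR, a phosphatase that lowers glycolytic flux, went the other way at 23.8, 25.2 and 25.8 CPM against 41.0, 40.5 and 41.1 CPM (log2 fold change -0.71, SE 0.0657).

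SESN1 and SESN2 encode sestrins, which restrain mTORC1. SESN2 was at 2.77, 2.43 and 3.92 CPM after siBRG1 and 4.85, 4.33 and 4.52 CPM in controls and fell by 0.59 on the log2 scale (SE 0.184, adjusted p = 0.00532 with edgeR). With GC content and length trends removed the value was -0.94. SESN1 was at 8.37, 10.3 and 11.8 CPM against 8.66, 8.71 and 8.99 CPM, with overlapping groups (0.20, adjusted p = 0.137 with edgeR). It passed the test without siBRG1 replicate 1 (0.33, adjusted p = 0.0215 with edgeR) and with library totals alone (0.28). The difference between SESN1 and SESN2 was not tested.

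**Figure D5:**
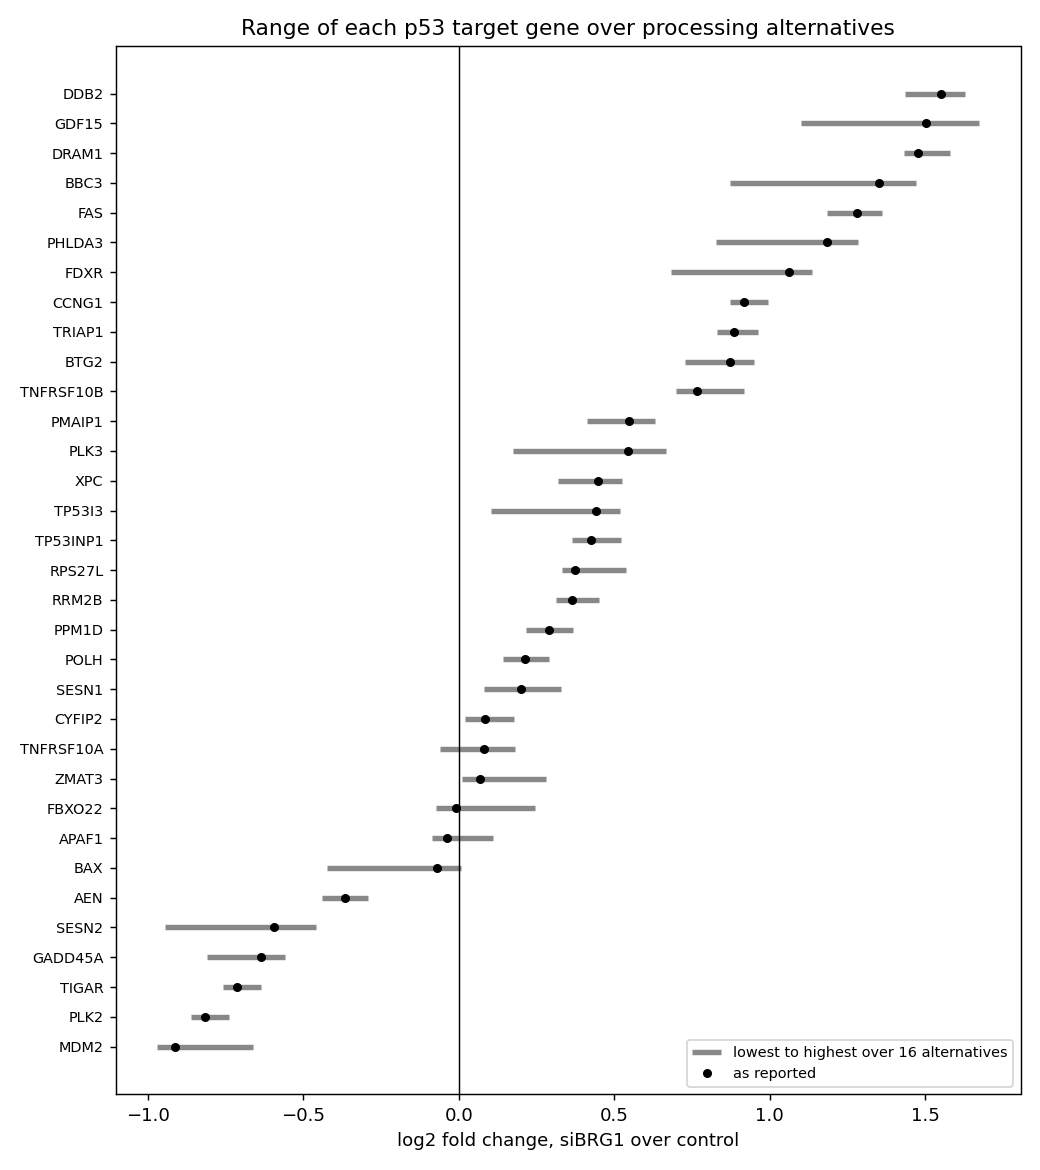
Log2 fold change of each p53 target gene (point) with its lowest and highest value over 16 alternative analyses (line). The lines of FBXO22, BAX, APAF1 and TNFRSF10A, none of them called, cross 0, and those of DDB2, DRAM1, MDM2 and PLK2 stay far from it.

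Compared per kilobase of exon, the 5 highest p53 target genes in controls were PLK2 (64.1 CPM per kb), CCNG1 (58.2), BAX (26.9), GADD45A (24.3) and TNFRSF10B (22.5). After siBRG1 they were CCNG1 (110), TRIAP1 (39.6), TNFRSF10B (38.2), PLK2 (36.4) and DRAM1 (31.0). PLK2 went from the highest place to the fourth, CCNG1 took the highest, and DRAM1 went from the ninth place to the fifth. The lowest tested genes in controls were FAS (0.669), CYFIP2 (0.488) and BBC3 (0.469). All these places depend on the merged exon length, for example 9127 bases for RPS27L and 4768 for PLK2. Which transcripts the cells expressed was not tested, so the order by transcript could differ.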

How the data were processed

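RNA of 6 libraries of 12Z cells was sequenced. Per the labels, 500 ng of total RNA entered a directional mRNA kit, and per the submitters' processing notes the tools were cutadapt, Trim Galore, FastQC, STAR and DESeq2 with genome GRCh38.p12; versions and the annotation release are not given in the sources used here. The authors deposited gene counts per library, unnormalized, for unstranded and both stranded readings, of which the stranded reading was used. The authors' deposited table gives a normalized mean signal, log2 fold changes, a test score and p-values.

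Ensembl identifiers were joined to GENCODE 29. Rows that name no gene (29.2% of siBRG1 and 28.9% of control reads) stayed out of library sizes. Counts were tested with edgeR 4.0.16 (limma 3.58.1, R 4.3.3): filterByExpr, TMM, robust quasi-likelihood fit, Benjamini-Hochberg adjustment. The SE is the log2 fold change divided by the root of F. DESeq2 1.42.0 was an alternative among 16.

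The members, classes and lists were chosen with earlier results of these data known. Library by library values were given to MDM2, PPM1D, the largest rise and fall per class among genes averaging 50 counts or more, and 3 related pairs. Of the other lists, CDKN1A, MDM4, SMARCA4 and each list's largest rise and fall past the threshold, among genes averaging 50 counts or more, were named; USP7, HIPK2, HRK, FAS, EPCAM, KRT8, KRT18, CD3E and RPS27 were named outside this rule, after values were seen. A gene that the rule names is not reported here.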

Additional observations from a re-analysis of the deposited data

Results flagged for a closer look

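Reads on the strand opposite to the p53 target genes were not used in the comparisons. In 4 genes every siBRG1 library lay above every control on that strand, with at least 10 such counts over the siBRG1 libraries; this rule was set after the opposite-strand counts had been looked at. They are 26.7% of the 15 tested p53 target genes with that many counts, and 22.7% of the 7538 such genes among all tested lay above. Another 3, MDM2, CCNG1 and DDB2, lay below every control (20%, against 19.6% of all such genes): MDM2 had 0.354 and 0.690 CPM, CCNG1 0.252 and 0.620 CPM, and DDB2 3.22 and 3.55 CPM after siBRG1 and in controls. FAS had a mean of 0.429 CPM after siBRG1 and 0.0899 CPM in controls, from 17 and 11 counts, and ACTA2 is annotated on that strand. TNFRSF10A had 0.436 and 0.205 CPM, from 17 and 26 counts, and TNFRSF10A-AS1, AC100861.1 and RPL23AP55 are annotated on that strand. XPC had 1.63 and 1.02 CPM, from 64 and 129 counts, and LSM3 is annotated on that strand. DRAM1 had 0.664 and 0.262 CPM, from 26 and 33 counts, and AC079907.2 and AC084398.2 are annotated on that strand. Opposite MDM2 lie AC025423.4 and the gene named CPM, and opposite DDB2 lies AC018410.2. The count rule looked at the siBRG1 libraries alone, so genes low there drop out, and all these shares carry that selection. It left out TP53INP1, which lay below every control (0.131 and 0.412 CPM, from 5 and 53 counts). Also left out were PMAIP1 (0.151 and 0.0222 CPM, from 6 and 3 counts) and ZMAT3 (0.231 and 0.117 CPM, from 9 and 15 counts), which lay above every control. The differences in opposite-strand reads were not tested.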

How the results depend on the processing

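Of the 26 p53 target genes called, 24 kept their call in all 16 alternatives. TP53I3 and PLK3 lost it with GC content and length trends removed. The counts were 20 to 22 higher and 6 to 7 lower. FBXO22, not called as reported (-0.01), was called higher with GC content and length trends removed (0.24). BAX, ZMAT3 and SESN1, also not called as reported, gained a call in some alternatives. The median log2 fold change of 0.37 was 0.36 with DESeq2 size factors, 0.45 with library totals alone, 0.36 with DESeq2, 0.33 with no count filter, 0.39 with at least 50 counts in 3 libraries, 0.42 with unstranded counts, 0.33 with protein-coding genes alone and 0.31 with GC content and length trends removed; leaving out each library in turn gave 0.33 to 0.41. Library totals alone moved the median of all genes to 0.07 and raised the share of all genes called higher to 40.2%, with 32.3% lower. With no count filter the median of all genes was -0.30. Replicate numbers do not pair the samples (r of deviations -0.0158, 0.0296 and 0.0120 for equal numbers, and not every sample correlated best with its own number); with the replicate block 11194 genes, 20 p53 target genes higher and 6 lower were called, with a median of 0.38. Genes of few counts, such as BBC3 and GDF15, carry the largest SE, and the siBRG1 libraries are the shallower ones.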

Other observations

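Of the 12 tested BCL2 family genes outside the p53 target genes, 7 rose and 3 fell (36.1% and 36.5% of all genes tested). The median of this family was 0.23 on the log2 scale. BMF, a BH3-only protein, rose by 1.61, and the survival gene BCL2L2 fell by 0.85 on the log2 scale, the largest rise and fall among genes averaging 50 counts or more. HRK, another BH3-only gene, averaged 29.8 counts and fell further (-1.44). Of 23 tested genes of the ATF4 and CHOP stress response, 6 rose and 11 fell (median -0.17). DDIT4, an inhibitor of mTORC1, rose by 1.45, and SLC7A11, the cystine transporter, fell by 2.89 on the log2 scale.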
